A study of Mus musculus with 21 samples.

Results

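Of the 52550 genes in the count table, 9 genes of glutamate transport and glutamate metabolism were followed across the cells of the mouse cochlea. They were chosen by symbol and matched to the table through their Ensembl identifiers. They are the vesicular glutamate transporters *Slc17a6*, *Slc17a7* and *Slc17a8*, the plasma membrane transporters *Slc1a1*, *Slc1a2*, *Slc1a3* and *Slc1a6*, the glutaminase *Gls2* and the glutamine synthetase *Glul*. All 9 genes passed the filter on low counts in both fits described below.

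Glutamate is the transmitter of the synapse between inner hair cells and spiral ganglion neurons (SGNs), and SGNs in turn release glutamate in the cochlear nucleus. A vesicular transporter (VGLUT) loads glutamate into synaptic vesicles, and its isoform differs between cell types. In the cochlea, VGLUT3, the product of *Slc17a8*, fills the vesicles of inner hair cells, and mice without it are deaf. Released glutamate is cleared by the sodium-coupled transporters of the Slc1 family, which in nervous tissue sit mainly in glia (*Slc1a2*, *Slc1a3*) or in neurons (*Slc1a1*, *Slc1a6*). In the glutamate-glutamine cycle, glial glutamine synthetase (*Glul*) turns glutamate into glutamine, and glutaminase activity in neurons turns glutamine back into glutamate.

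RNA was sequenced from 7 groups of cells with 3 libraries each. SGNs of 5 ages, from E15.5 and P1 up to P30 by way of P8 and P14, were hand-picked as tdTomato+ cells from mice with *ShhCre/+* and the reporter allele *Rosa26-CAG-loxp-stop-loxp-tdTomato/+*. Hair cells (HCs) at P12 came from cochlear and vestibular organs of *Atoh1-CreER+* mice with the same reporter, and glial cells at P8 from *vGlut3-iCreER/+* mice with the same reporter. All groups therefore carried a Cre driver and the reporter allele, on the C57BL/6 strain. Tamoxifen was given to the HC mice at P0 and P1 and to the glial mice at P2 and P3, whereas SGN labelling needed none. The glial driver takes its name from the protein that *Slc17a8* encodes and also marks inner hair cells, which were removed by dissecting only the area of the SGNs. Thus *Slc17a8* bears on how the glial cells were chosen, and its level in them is given below with that in mind. The labels list between 69 and 195 cells per SGN library, 86 to 125 per glial library and about 1200 per HC library, and they describe manual sorting for HCs where the paper's methods describe FACS. Nothing in the labels says that replicates came from separate animals, so p-values measure the spread between these libraries, which may be partly technical. Age, picking session and litter cannot be told apart, nor can cell type, driver strain and age in the comparisons of SGNs with HCs and glia.

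Libraries held between 10368240 and 37287489 counts on genes. The 8 SGN markers summed to between 1010 and 8998 TPM in SGN libraries, against 38.8 to 360 TPM in glia and 455 to 484 TPM in HCs. The 5 HC markers summed to between 2387 and 2810 TPM in HCs and to 12.6 to 190 TPM in SGNs, and the 8 glial markers to between 7628 and 10591 TPM in glia and to 7.41 to 1447 TPM in SGNs. For each list, every library of the matching label held more than any other library. Within groups, 3 libraries stood apart in HC or SGN markers. SGN P1 replicate 2 and SGN P14 replicate 1 held the most HC marker RNA of the SGN libraries (129 and 190 TPM). Glial replicate 1 held 360 TPM of SGN markers where the other glial libraries held 76.0 and 38.8 TPM. Values without these libraries are given where they change a result. The libraries were picked after seeing the data, for their levels of the HC marker *Otof* and of *Slc17a6*. Values without them are therefore no check on *Slc17a6*, *Slc17a7* or *Slc17a8*. As these are pooled cells, a lower level can mean fewer cells of a type or less RNA per cell, which cannot be told apart.

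Because the 3 vesicular transporters differ between SGNs and HCs in opposite directions, the sequences around the first RefSeq start site of each are shown. They run over 300 bases around the start, most of them before it (GRCm38.p6), 5′ to 3′ on the strand of the gene, with motif matches in capitals. *Slc17a6* lies at chr7:51621580-51621879 (+), *Slc17a7* at chr7:45163671-45163970 (+) and *Slc17a8* at chr10:89621200-89621499 (-).
*Slc17a6*: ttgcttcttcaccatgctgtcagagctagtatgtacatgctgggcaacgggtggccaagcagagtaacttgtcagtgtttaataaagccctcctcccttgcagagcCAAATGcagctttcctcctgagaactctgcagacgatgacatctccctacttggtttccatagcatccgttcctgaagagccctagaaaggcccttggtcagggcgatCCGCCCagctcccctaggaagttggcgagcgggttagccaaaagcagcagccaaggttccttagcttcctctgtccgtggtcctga
*Slc17a7*: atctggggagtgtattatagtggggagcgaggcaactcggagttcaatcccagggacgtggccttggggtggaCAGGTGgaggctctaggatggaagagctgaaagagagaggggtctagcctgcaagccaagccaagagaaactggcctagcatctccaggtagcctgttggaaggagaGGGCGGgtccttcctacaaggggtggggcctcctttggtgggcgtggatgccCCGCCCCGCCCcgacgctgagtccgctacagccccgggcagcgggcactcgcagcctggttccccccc
*Slc17a8*: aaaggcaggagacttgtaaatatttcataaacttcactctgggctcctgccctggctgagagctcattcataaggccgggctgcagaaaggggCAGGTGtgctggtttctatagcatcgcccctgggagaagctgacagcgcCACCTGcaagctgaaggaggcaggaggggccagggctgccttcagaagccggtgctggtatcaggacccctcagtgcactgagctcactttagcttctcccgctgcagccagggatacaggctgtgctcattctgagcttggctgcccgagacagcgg

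Capitals mark the letters of 6 motifs searched on both strands. Of 32851 mouse promoter windows of the same length, 13.6% held TATAAA, 37.4% held CCAAT, 35.7% held GGGCGG, 1.79% held TGACGTCA, 72.3% held CANNTG and 11.2% held AGATAA. The *Slc17a7* window held GGGCGG 3 times, at -70, -18 and -13 from the start, of which the last 2 overlap by a base on the minus strand, and CANNTG at -177. The *Slc17a6* window held GGGCGG at -36 and CANNTG at -144. The *Slc17a8* window held CANNTG at -157 and -108 and none of the other letters. CG dinucleotides numbered 13 in the *Slc17a7* window, 8 in that of *Slc17a6* and 7 in that of *Slc17a8*, beside a median of 7 over all windows. These are matches of letters and not binding sites. A RefSeq window was matched for 8 of the 9 genes; *Gls2* had no entry. In GENCODE M21 (GRCm38) the gene bodies lie at chr7:51622006-51671119 (*Slc17a6*), chr7:45163949-45176142 (*Slc17a7*) and chr10:89574020-89621253 (*Slc17a8*). Those of the plasma membrane transporters lie at chr19:28835049-28913960 (*Slc1a1*), chr2:102658659-102790784 (*Slc1a2*), chr15:8634124-8710764 (*Slc1a3*) and chr10:78780496-78814765 (*Slc1a6*), and those of the enzymes at chr10:128194457-128210004 (*Gls2*) and chr1:153899944-153909723 (*Glul*).

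The VGLUT transcripts of SGNs were *Slc17a6* and *Slc17a7*, and both were higher at P30 than at E15.5. *Slc17a6* (ENSMUSG00000030500.6), which encodes VGLUT2, was at 19.6, 15.1 and 32.8 TPM in the 3 libraries at E15.5 and at 40.3, 61.9 and 90.6 TPM at P1. It reached 77.1, 173 and 73.5 TPM at P8, 135, 59.0 and 246 TPM at P14, and 120, 162 and 123 TPM at P30. No library at E15.5 overlapped any library at P1 or later, whereas neighbors in the order of means from P1 onward overlapped. In the limma-voom fit of the 15 SGN libraries, the log2 change was 0.97 ± 0.30 (SE) from E15.5 to P1 (adjusted p = 0.0437, just under a 2-fold change) and 1.16 ± 0.24 from P1 to P8 (adjusted p = 0.00479). Over the whole course from E15.5 to P30 it was 2.78 ± 0.28 (adjusted p = 1.08e-06). The step from P1 to P8 fell below 2-fold without P1 replicate 1 (0.90) and with scaling by library size alone (0.94).

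*Slc17a7* (ENSMUSG00000070570.5), which encodes VGLUT1, started lower. Its 3 libraries held 6.00, 7.91 and 3.18 TPM at E15.5, and 34.7, 58.2 and 56.8 TPM at P1. It then stood at 83.9, 146 and 78.5 TPM at P8, at 172, 101 and 145 TPM at P14, and at 71.3, 103 and 38.2 TPM at P30. Again E15.5 lay below every later library, and P8, P14 and P30 overlapped with one another. The log2 change was 2.67 ± 0.49 from E15.5 to P1 (adjusted p = 0.00302), 1.46 ± 0.28 from P1 to P8 (adjusted p = 0.00301) and 3.78 ± 0.48 from E15.5 to P30 (limma adjusted p = 1.25e-05). With edgeR's quasi-likelihood test the step from P1 to P8 had an adjusted p of 0.0619 at a log2 change of 1.41. The later difference of -0.72 ± 0.27 from P14 to P30 did not pass (limma adjusted p = 0.566). The SGN markers as a list moved in the same libraries: their sum was 1010 to 2052 TPM at E15.5 and 3104 to 8998 TPM at P14, and P14 replicate 2, the lowest P14 library for both transporters, had the lowest sum of that age.

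HCs and glia held little of either. *Slc17a6* was at 7.34, 8.31 and 4.92 TPM in HCs and at 18.7, 0.938 and 0.865 TPM in glia. *Slc17a7* was at 0.675, 0.522 and 0.448 TPM in HCs and at 12.9, 0.795 and 0.354 TPM in glia. Every SGN library exceeded every HC library for both genes, and glial replicate 1 overlapped with E15.5 SGNs for *Slc17a6* and exceeded them for *Slc17a7*. In glia, the high library was replicate 1 for both genes, where *Slc17a6* and *Slc17a7* stood at 17.3% and 12.6% of the P8 SGN mean and the SGN markers at a median of 10.9%. In the fit of all 21 libraries, the mean of the 5 SGN ages exceeded HCs by 4.75 ± 0.67 for *Slc17a6* (adjusted p = 4.27e-06) and by 7.70 ± 1.27 for *Slc17a7* (adjusted p = 2.91e-05) on the log2 scale. It exceeded glia by 4.11 ± 0.74 (adjusted p = 0.000111) and 4.17 ± 0.87 (adjusted p = 0.000459). Without glial replicate 1, the glial library with the most of both, those last values were 5.92 and 6.03, a rise that follows from that choice. With voom's sample quality weights, *Slc17a7* no longer passed against glia (adjusted p = 0.0266 at a log2 difference of 4.10).

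**Figure D1:**
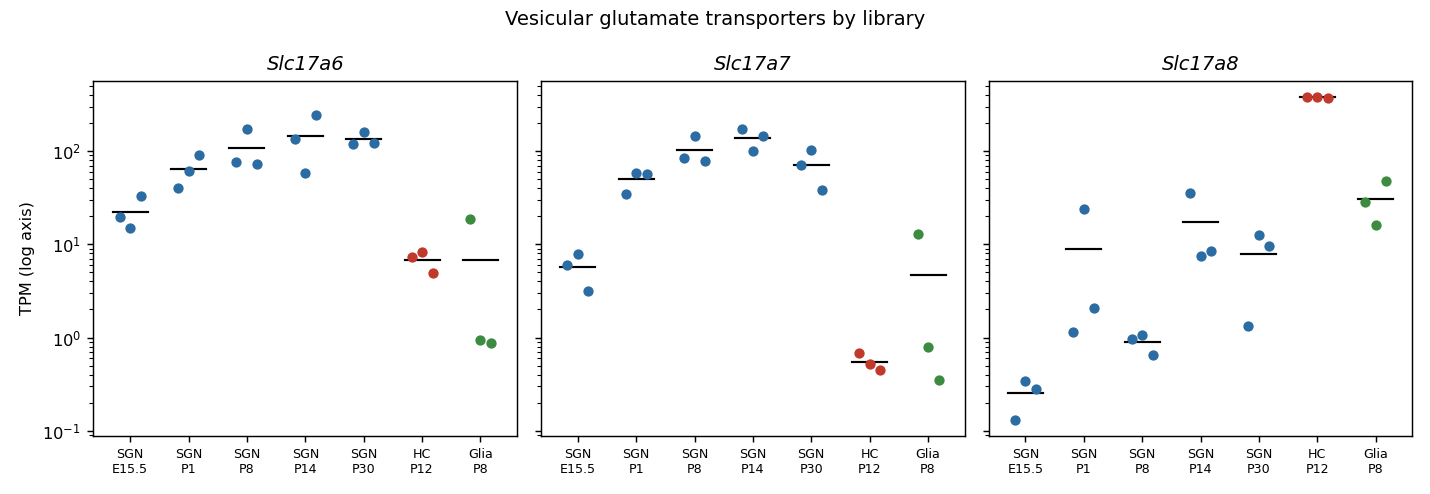
TPM of the 3 vesicular glutamate transporters in each library (points; log axis) with the mean of each group (bars); blue marks SGNs, red HCs and green glia, and the replicates of a group stand side by side. *Slc17a6* and *Slc17a7* are lowest among SGNs at E15.5, and *Slc17a8* sits between 377 and 380 TPM in HCs.

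Within the SGN libraries, the mean shares of the VGLUT transcripts differed between ages, and the test of the *Slc17a7* share depended on single libraries. *Slc17a7* made up 22% ± 12.6 of the summed TPM of the 3 genes at E15.5 (SD, n = 3), and 41.4% ± 3.89 at P1. At P8 and P14 it made up 49.6% ± 3.46 and 48.9% ± 12, and 32.2% ± 8.53 at P30. In single libraries the share was 23.3%, 33.9% and 8.78% at E15.5, and 51.8%, 45.6% and 51.4% at P8. At P30 it was 37.1%, 37.2% and 22.4%, so that P8 lay above both ends of the series without overlap. P14, at 50.3%, 60.2% and 36.3%, overlapped with P30. The sum includes *Slc17a8*, which took 16.5% in P1 replicate 2 and 10.5% in P14 replicate 1. The ratio of *Slc17a7* to *Slc17a6* was 0.0970 to 0.526 at E15.5, 0.627 to 0.940 at P1 and 0.844 to 1.09 at P8. At P14 it was 0.589 to 1.71 and at P30 0.310 to 0.639. The remainder was mostly *Slc17a6*, with 77.1% ± 13.0 at E15.5 and 64.2% ± 7.11 at P30. A permutation test of the age labels over the 15 libraries (100000 resamples, upper tail of the variance of the 5 age means) gave p = 0.0147. The p rose to between 0.0536 and 0.0577 when any 1 of the 3 P1 libraries was left out. Without any 1 P8 or P30 library it was 0.0287 to 0.0456, so a rise was not particular to P1. Without a P14 library it was 0.00835 to 0.0466, and without an E15.5 library 0.00244 to 0.0313. In HCs *Slc17a7* made up 0.142% ± 0.0290 and *Slc17a8* 98.1% ± 0.460.

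**Figure D2:**
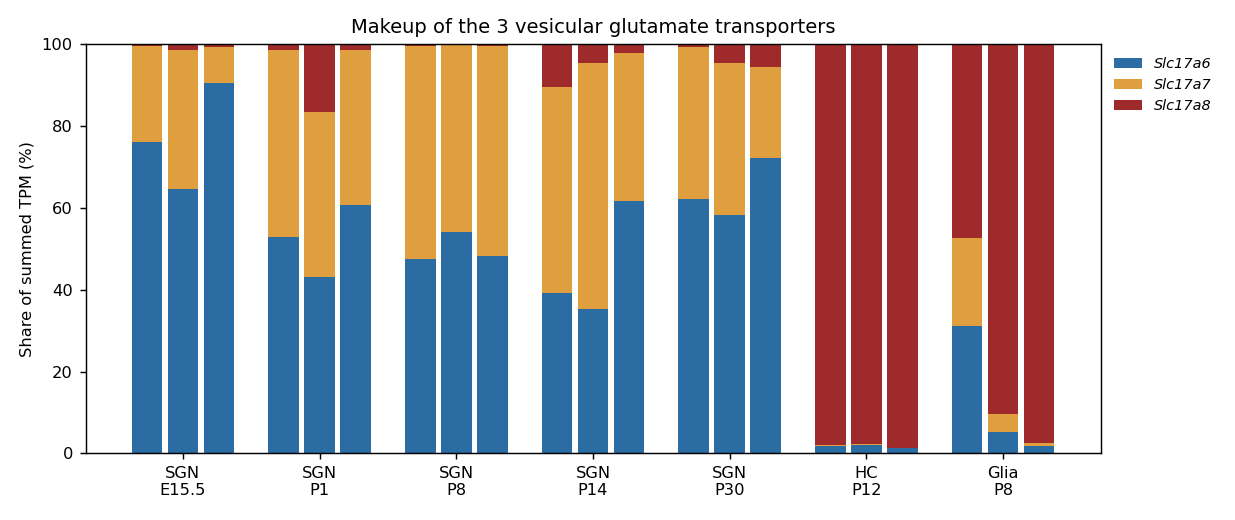
Share of *Slc17a6*, *Slc17a7* and *Slc17a8* in their summed TPM, in percent, with 1 bar per library and replicates 1 to 3 from left to right in each group. *Slc17a7* takes 8.78% to 33.9% at E15.5 and 45.6% to 51.8% at P8, and *Slc17a8* takes at least 97.7% in each HC library.

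*Slc17a8* (ENSMUSG00000019935.16) was the VGLUT of HCs, at 380, 377 and 377 TPM. SGN libraries were far lower and uneven. They held 0.131, 0.345 and 0.278 TPM at E15.5, 1.13, 23.8 and 2.08 TPM at P1, and 0.960, 1.05 and 0.650 TPM at P8. At P14 they held 35.9, 7.59 and 8.52 TPM and at P30 1.35, 12.6 and 9.55 TPM. The mean of the SGN ages was lower than HCs by a log2 difference of -6.14 ± 0.48 (limma adjusted p = 8.54e-10), and P14 SGNs alone by -3.51 ± 0.54 (adjusted p = 2.28e-05). Without P1 replicate 2, P14 replicate 1 and glial replicate 1 together, the P14 difference was -4.09. P14 replicate 1 held the most *Slc17a8* of that age, so the wider difference follows from leaving it out. With the quasi-likelihood test on all libraries the P14 difference was -3.38, with an adjusted p of 0.0104.

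The 2 SGN libraries with the most *Slc17a8* also had the most *Otof*, the gene of the hair cell synaptic protein otoferlin. SGN P14 replicate 1 had 9.51% of the HC mean for *Slc17a8* and 6.76% for *Otof*, and SGN P1 replicate 2 had 6.29% and 4.21%. In the other 13 SGN libraries, *Slc17a8* lay between 0.0348% and 3.34% of the HC mean and *Otof* between 0.0512% and 1.57%. *Slc17a8* stood above *Otof*, relative to HCs, in all P14 libraries, in P30 replicates 2 and 3 and in P1 replicate 2, and below it in the others. The same 6 libraries, and no other SGN library, had *Slc17a8* above the median of the 5 HC markers, which ran from 0.0512% to 6.76% over the SGN libraries. The highest of the 5 markers was nonetheless above *Slc17a8* in all SGN libraries but P14 replicate 1 (9.24% for that marker) and P30 replicate 3 (1.98% against 2.53%). In P1 replicate 2 it stood at 7.07%, in P14 replicates 2 and 3 at 2.64% and 2.76%, and in P30 replicate 2 at 3.65%. No change of *Slc17a8* between ages passed the limma test. From E15.5 to P1 the log2 change was 3.29 ± 2.15 (adjusted p = 0.334), which DESeq2 and the quasi-likelihood test called (4.67 and 4.69, adjusted p = 0.000618 and 0.0208), and from P1 to P8 it was -1.56 ± 1.44 (limma adjusted p = 0.551), which DESeq2 called (-3.14, adjusted p = 0.0430). From P8 to P14 it was 3.90 ± 1.32 (adjusted p = 0.203), and DESeq2 (4.05, adjusted p = 0.0147) and a fit of those 6 libraries alone (adjusted p = 0.0433) called it. From E15.5 to P30 it was 4.34 ± 2.10 (limma adjusted p = 0.107), and it was called by DESeq2 and the quasi-likelihood test (adjusted p = 5.38e-05 and 0.00426). With limma it was called without P30 replicate 1 (0.0204) and without the 3 libraries that stood apart (0.0341). P30 replicate 1 held the least *Slc17a8* of that age, so the larger change without it follows from leaving it out. The 3 libraries were chosen partly for *Otof*, so the fit without them is no check on *Slc17a8*. The part of HC RNA in the *Slc17a8* of SGN libraries was not tested.

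Glial libraries held 28.3, 16.2 and 48.0 TPM of *Slc17a8*, between HCs and most SGN libraries. This was 7.49%, 4.29% and 12.7% of the HC mean, where *Otof* was at 0.414%, 1.01% and 0.751% and the 5 HC markers had medians of 2.4%, 1.03% and 0.751%. In each glial library, the percentage for *Slc17a8* was above that for *Otof* and above the median of the HC markers. The highest of these markers reached 7.39%, 5.30% and 6.78%, which in replicate 1 was close to the percentage for *Slc17a8* and in replicate 2 above it. Against glia, the mean of the SGN ages was lower by -4.04 ± 0.59 (limma adjusted p = 9.4e-06) and P8 SGNs by -5.31 ± 1.15 (adjusted p = 0.000895). HCs exceeded glia by 2.10 ± 0.45 (adjusted p = 0.000729) on the TMM scale, close to the 4-fold limit. By library size alone the difference was 2.60 (limma adjusted p = 9.51e-05). The first call was lost without glial replicate 2 (1.79) and with DESeq2, the quasi-likelihood test or sample quality weights (adjusted p = 0.0367, 0.0932 and 0.0505). The glial cells were labelled by a driver named for VGLUT3, and reads from the driver allele and from the other allele cannot be told apart in gene counts.

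**Figure D3:**
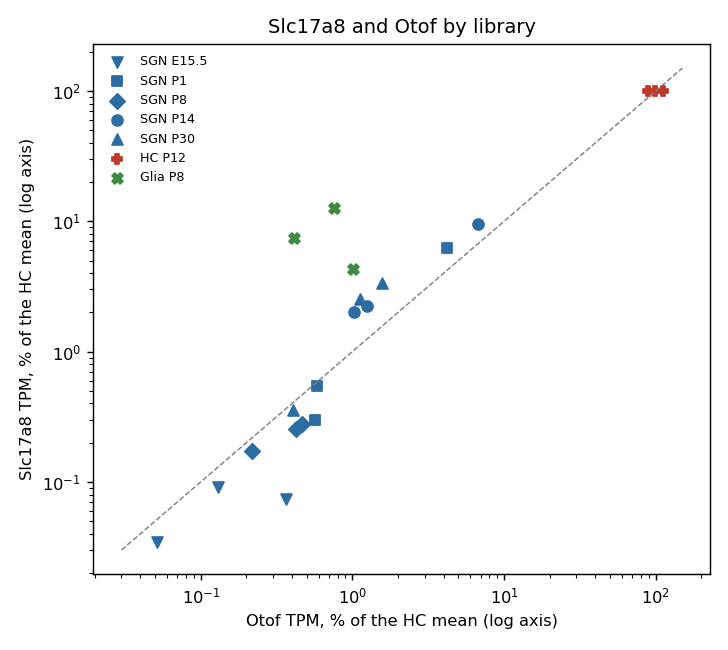
*Slc17a8* against *Otof* in each library, both in TPM as percent of the HC mean (log axes); the dashed line marks equal percentages, and symbols give the groups. SGN libraries lie on both sides of the line, with P14 replicate 1 highest among them at 9.51% and 6.76%, and the 3 glial libraries lie above it.

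Of the plasma membrane transporters, *Slc1a2* and *Slc1a1* changed in SGNs over the whole course and in opposite directions, at low levels. *Slc1a2* (ENSMUSG00000005089.15), the main glutamate transporter of astrocytes in the brain, was at 6.36, 4.20 and 13.1 TPM at E15.5 and at 11.6, 5.16 and 5.78 TPM at P1. By P8 it was at 2.13, 1.14 and 0.533 TPM. The P14 libraries held 7.35, 0.0457 and 0.394 TPM and those of P30 held 0.758, 0.370 and 0.434 TPM. All E15.5 and P1 libraries lay above all P8 and P30 libraries, and P14 replicate 1 overlapped with the early ages. At P1, P8, P14 and P30, replicate 1 held the most *Slc1a2* and the most connective tissue markers (125, 146, 65.7 and 19.4 TPM). At E15.5, replicate 3 held the most *Slc1a2*, with the most glial markers of that age (349 TPM) and the fewest connective tissue markers (7.51 TPM). The part of such RNA in *Slc1a2* was not tested. The log2 change from E15.5 to P30 was -3.60 ± 0.88 (limma adjusted p = 0.00401). From P1 to P8 it was -2.27 ± 0.66 (adjusted p = 0.0350), a call that was lost without P1 replicate 1 or 2 or any of the P8 replicates, with adjusted p-values up to 0.144, and with DESeq2 and the quasi-likelihood test (0.205 and 0.235) and without a filter on low counts (0.0884). HCs held 2.57, 4.90 and 3.48 TPM and glia 1.82, 0.0148 and 1.16 TPM, and no comparison with SGNs passed. *Gm13872* shares 189 exon bases with *Slc1a2* on the other strand.

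*Slc1a1* (ENSMUSG00000024935.10), a neuronal glutamate and cysteine transporter, was at 0, 0.442 and 0.156 TPM in SGNs at E15.5 and at 2.87, 2.68 and 2.52 TPM at P30. Intermediate ages ranged from 1.15 to 6.52 TPM, so E15.5 lay below all later ages. The log2 change from E15.5 to P30 was 5.00 ± 1.27 (limma adjusted p = 0.00501). HCs held 2.39, 5.24 and 6.21 TPM, and glia 0.130, 0.0947 and 0 TPM. In the 3 glial libraries, 19 counts in all stood beside 717 in P8 SGNs, a CPM ratio of 16.4 (95% exact interval 10.4 to 27.4, which covers counting error only). By limma, P8 SGNs exceeded glia by 4.77 ± 1.17 (adjusted p = 0.00258) and HCs exceeded glia by 4.79 ± 1.2 (adjusted p = 0.00281). Both calls were lost without glial replicate 3 (adjusted p = 0.0325 and 0.0321) and with sample quality weights (adjusted p = 0.0743 and 0.0773), and the second also without HC replicate 3 (adjusted p = 0.0104). The SGN mean exceeded glia by 4.21 ± 1.10 (limma adjusted p = 0.00338), and this too was lost without glial replicate 2 or 3 (0.0120 and 0.0543) and with sample quality weights (0.135). Values of *Slc1a1* are uncertain, since 2631 of its exon bases overlap *4430402I18Rik* on the other strand and 31.0% of its 50-base stretches also occur in that gene.

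*Slc1a3* (ENSMUSG00000005360.14), the transporter GLAST of glia and of supporting cells around inner hair cells, was highest in the HC libraries, at 29.6, 30.3 and 27.2 TPM. Glia held 1.76, 3.08 and 15.1 TPM. SGN libraries held between 0.156 and 5.28 TPM, with 3.48, 0.345 and 0.648 TPM at P1 and 4.96, 5.28 and 1.90 TPM at P8. P1 replicate 1 thus lay above P8 replicate 3. That P1 library also held 64.3 TPM of endothelial markers, the most of any SGN library, and 125 TPM of connective tissue markers. Other P1 libraries held 0.0917 and 0.325 TPM of the former and 7.09 and 9.12 TPM of the latter. The part of such RNA in *Slc1a3* was not tested. HC libraries lay above all others, and SGNs were lower than HCs by -3.19 ± 0.42 (limma adjusted p = 1.69e-06). The 6 supporting cell markers summed to 721 to 784 TPM in HCs, 10.7 to 98.6 TPM in glia and 0.474 to 44.2 TPM in SGNs, with none at 0 in HCs; their part in the HC value was not tested. The log2 difference of the SGN mean from glia was -1.89 ± 0.54 (limma adjusted p = 0.00628), short of 4-fold, and it passed 4-fold without glial replicate 1 (-2.75), SGN P1 replicate 1 (-2.13) or SGN P30 replicate 1 (-2.07), without the 3 libraries that stood apart (-2.65), and with the quasi-likelihood test (-2.54) and DESeq2 (-2.69). That of HCs from glia was 1.30 ± 0.54 (limma adjusted p = 0.0550), and 2.09 without glial replicate 3 (adjusted p = 0.00552), but 0.44 without glial replicate 1 (adjusted p = 0.533) and 0.51 without the 3 libraries that stood apart (0.493). By library size alone, HCs differed from glia by 1.80 (limma adjusted p = 0.0102). In SGNs the log2 change from P1 to P8 was 2.25 ± 0.67 (limma adjusted p = 0.0394), while the glial markers summed to 89.6 to 209 TPM at P1 and 787 to 1447 TPM at P8. This call was lost without P1 replicate 2 or 3 or any P8 replicate, with adjusted p-values of 0.0517 to 0.166, and with DESeq2 and the quasi-likelihood test (0.152 and 0.261), library size alone (0.0598), no filter on low counts (0.0804) and without the 3 libraries that stood apart (0.183). The part of glial RNA in it was not tested.

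*Slc1a6* (ENSMUSG00000005357.9), known as the transporter of cerebellar Purkinje cells, was low throughout. SGN libraries ranged from 0.192 to 4.85 TPM, and the means of the ages ran from 0.723 TPM at P30 to 2.87 TPM at P1, with overlapping libraries between neighbors in that order. HCs held 0.470, 2.54 and 1.40 TPM. In glia, 12 counts fell on it in replicate 1 (0.344 TPM) and 0 in replicates 2 and 3, which allows up to 0.136 and 0.148 TPM (3 counts). P8 SGNs had 300 counts, a CPM ratio of 10.8 to glia (95% exact interval 6.12 to 21.2). No change with age passed, and P8 SGNs exceeded glia by 4.56 ± 1.12 (limma adjusted p = 0.00253). The call was lost with the quasi-likelihood test (adjusted p = 0.0233), with sample quality weights (0.148) and without P8 replicate 1 or 2 or glial replicate 2 or 3 (adjusted p = 0.0101 to 0.0244). The SGN mean exceeded glia by 4.02 ± 1.00 (limma adjusted p = 0.00227), which was lost without glial replicate 2 or 3 as well (0.0334 and 0.0323), with the quasi-likelihood test (0.0230) and with sample quality weights (0.152).

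**Figure D4:**
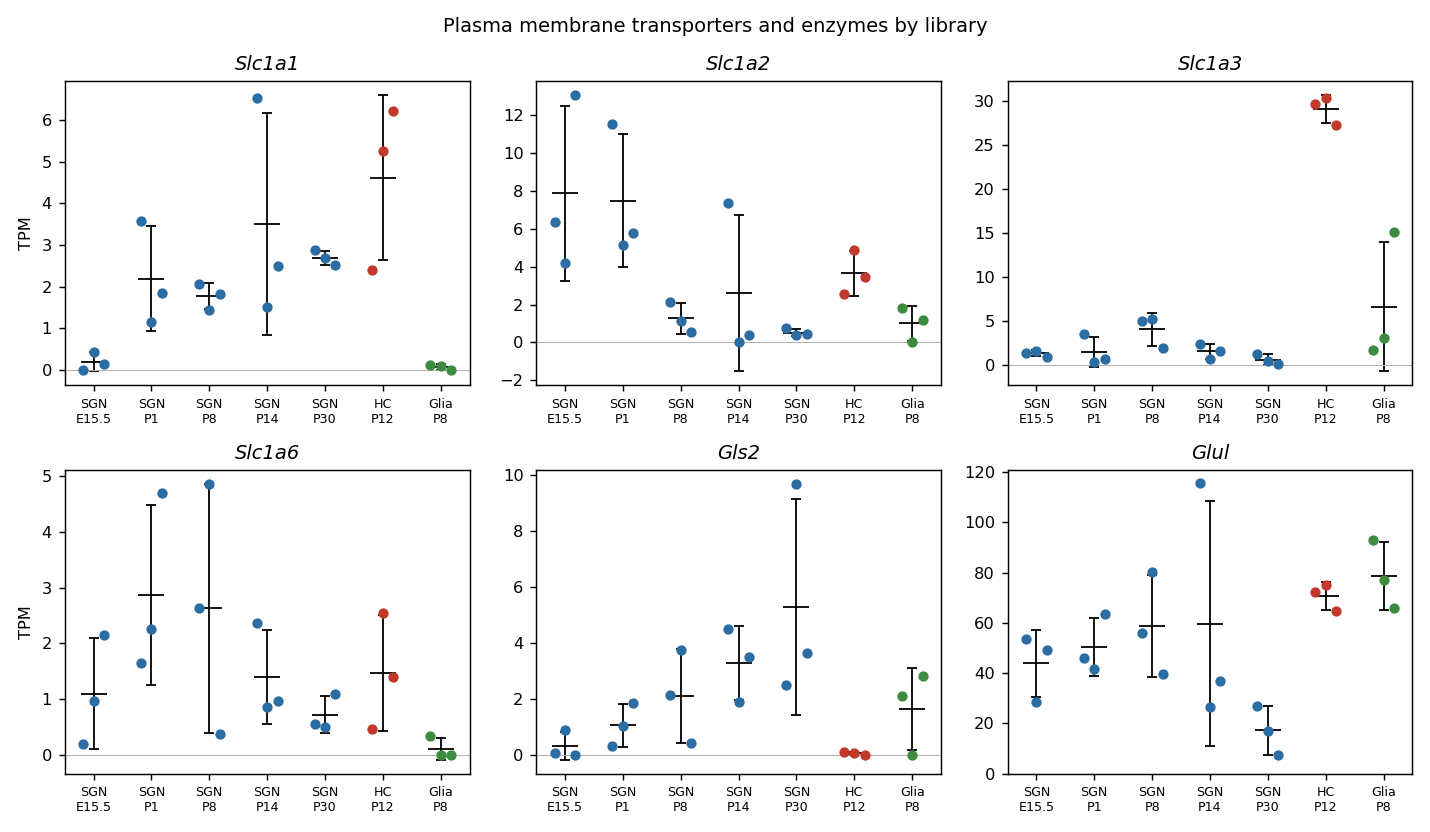
TPM of the 4 plasma membrane transporters and the enzymes *Gls2* and *Glul* in each library (points) with the mean and SD of each group of 3 libraries (bars); blue marks SGNs, red HCs and green glia. *Slc1a3* is highest in HCs (27.2 to 30.3 TPM), *Gls2* is at or below 0.116 TPM there, and *Glul* is lowest in SGNs at P30.

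Among the enzymes, *Gls2* rose and *Glul* fell in SGNs between E15.5 and P30. *Gls2* (ENSMUSG00000044005.13), a mitochondrial glutaminase, was at 0.0893, 0.90 and 0 TPM at E15.5, 0.320, 1.03 and 1.87 TPM at P1 and 2.17, 3.75 and 0.430 TPM at P8. It was at 4.51, 1.89 and 3.50 TPM at P14 and at 2.52, 9.71 and 3.66 TPM at P30. P30 lay above E15.5 and P1 without overlap, and no step between neighboring ages passed the test. The log2 change from E15.5 to P30 was 5.43 ± 1.36 (limma adjusted p = 0.00466). HCs held 2, 2 and 0 counts. Over the 3 libraries, P14 SGNs had 416 counts and HCs 4, a CPM ratio of 71.1 (95% exact interval 27.6 to 262), and over all 15 SGN libraries the ratio was 59.1 (23.0 to 217). The limma adjusted p was 0.00474 for the SGN mean and 0.00175 for P14 SGNs. The first was lost without any 1 of the HC libraries (adjusted p = 0.0112 to 0.0466) and the second without HC replicate 3 (0.0175). Glia held 2.11, 0 and 2.84 TPM and overlapped with SGNs, with no difference between glia and SGNs called. HCs were lower than glia by DESeq2 and the quasi-likelihood test (adjusted p = 0.000141 and 0.00892) but not by limma. Without glial replicate 2, which held 0 TPM, limma called it as well (adjusted p = 0.000735), a gain that follows from leaving that library out. The gene *Spryd4* shares 97 exon bases with *Gls2* on the other strand.

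*Glul* (ENSMUSG00000026473.15) was abundant in all groups. SGN libraries held 53.7, 28.7 and 49.3 TPM at E15.5, 46.1, 41.6 and 63.5 TPM at P1 and 56.1, 80.3 and 39.9 TPM at P8. They held 116, 26.5 and 37.0 TPM at P14 and 26.8, 17.1 and 7.63 TPM at P30. P30 lay below E15.5, P1 and P8 without overlap, and P14 replicate 1 was the highest SGN library. It held 945 TPM of glial markers beside 240 and 271 TPM in the other P14 libraries. P8 replicates 1 and 2 held more glial marker RNA (1447 and 1421 TPM) with less *Glul*. P14 replicate 1 also held the most HC and supporting cell markers of the SGN libraries (190 and 44.2 TPM), and their part in *Glul* was not tested. The log2 change from E15.5 to P30 was -1.22 ± 0.37 (limma adjusted p = 0.0157). The P30 libraries held 7.41 to 227 TPM of glial markers and the E15.5 libraries 82.0 to 349 TPM, and the part of glial RNA was not tested. The call was lost without P30 replicate 2 or 3 (adjusted p = 0.0572 and 0.0751) and without a filter on low counts (0.0531). From P14 to P30 it was -1.30 ± 0.37 (adjusted p = 0.315), which DESeq2, sample quality weights and the fit without P14 replicate 3 called (adjusted p = 0.0338, 0.0281 and 0.0461). Without P14 replicate 1, the change was -0.85 (limma adjusted p = 0.923), under 2-fold.

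Glia held 93.0, 77.1 and 65.8 TPM of *Glul* and HCs 72.3, 75.1 and 64.6 TPM, so these groups overlapped in TPM. The log2 difference of the SGN mean from glia was -1.38 ± 0.22 (limma adjusted p = 2.22e-05), short of 4-fold, and that of P8 SGNs -0.82 ± 0.26 (adjusted p = 0.0145). SGN libraries reached 9.70% to 147% of the glial mean for *Glul*, where their glial markers had medians of 0.0690% to 9.70%. The comparison with HCs depended on scaling. On the TMM scale the SGN mean was 0.47 ± 0.26 above HCs (adjusted p = 0.144) and by library size alone -0.09 (adjusted p = 0.800), while the mean TPM was 46.0 ± 26.7 in SGNs (SD, n = 15) and 70.7 ± 5.48 in HCs (SD, n = 3). HCs differed from glia by -1.84 ± 0.31 on the TMM scale (limma adjusted p = 7.33e-05), short of 4-fold, and by -1.35 on library size alone. Of the 50-base stretches of *Glul*, 12.6% also occur in other genes, among them the pseudogene *Glns-ps1*.

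Between neighboring ages, the calls among the 9 genes came by P8. From E15.5 to P1, 1 of the 9 passed an adjusted p of 0.05 and a 2-fold change (*Slc17a7*, higher), where 8.26% of all 15113 genes tested did. From P1 to P8, 4 passed (*Slc17a6*, *Slc17a7* and *Slc1a3* higher, *Slc1a2* lower), beside 7.44% of all genes. From P8 to P14, 0 of 9 passed with limma, beside 0.536% of all genes. At an unadjusted p under 0.05 there were 2 (*Slc17a8* and *Slc1a3*), DESeq2 called 1 and edgeR 0. From P14 to P30, 0 passed with limma, beside 0.0596% of all genes, with 2 at an unadjusted p under 0.05 (*Slc17a7* and *Glul*), 1 by DESeq2 and 0 by edgeR. With the replicates blocked by number, the fit gave 23 of all genes for P14 to P30, where it gave 9 unblocked, and 0 of the 9 genes. From E15.5 to P30, 6 passed (*Slc17a6*, *Slc17a7*, *Slc1a1* and *Gls2* higher, *Slc1a2* and *Glul* lower), beside 34.6% of all genes. The median log2 change of the 9 genes over this span was 2.78, against -0.01 for all genes. These comparisons share libraries with one another.

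Between cell types, the threshold was an adjusted p of 0.01 and a 4-fold change. Against HCs, 5 of the 9 passed for the SGN mean (*Slc17a6*, *Slc17a7* and *Gls2* higher, *Slc17a8* and *Slc1a3* lower), beside 26.8% of the 17531 genes tested, and the same 5 for P14 SGNs, beside 23.1%. Against glia, 5 passed for the SGN mean (*Slc17a6*, *Slc17a7*, *Slc1a1* and *Slc1a6* higher, *Slc17a8* lower), beside 24.7%, and the same 5 for P8 SGNs, beside 20.9%. Between HCs and glia, 2 passed with limma (*Slc17a8* and *Slc1a1*, both higher in HCs), beside 24.4%. DESeq2 and the quasi-likelihood test did not call *Slc17a8* there, but called *Slc17a7* and *Gls2*, both lower in HCs. For *Slc17a7* the log2 differences were -4.45 and -4.71 (adjusted p = 7.85e-08 and 0.000699), and for *Gls2* -6.14 and -6.17 (adjusted p = 0.000141 and 0.00892). The comparisons with SGN mean and with a single age share the HC or glial libraries. Scaling by library size alone shifted the median of all genes by -0.55 (log2) for the SGN mean against HCs, by -0.71 for P14 SGNs against HCs and by -0.48 from E15.5 to P30. The share of higher calls among all genes then went from 39.3% to 26.0%, from 47.2% to 27.0% and from 53.2% to 29.9%. For HCs against glia the median shifted by 0.49, and the share of higher calls went from 66.4% to 77.8%. Under that scaling, 5 of the 9 genes were called against HCs both for the SGN mean and for P14 SGNs.

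**Figure D5:**
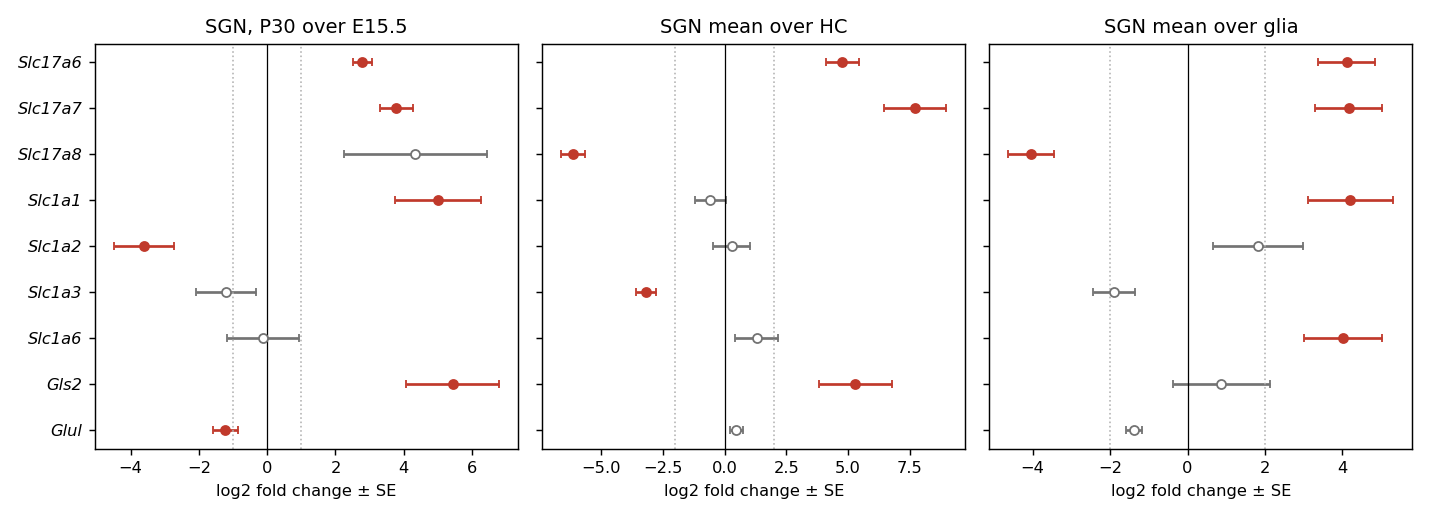
Log2 fold change with its SE (limma-voom) of the 9 genes from E15.5 to P30 in SGNs, and of the mean of the 5 SGN ages over HCs and over glia. Filled red points passed the thresholds and open gray points did not, and dotted lines mark 2-fold in the first panel and 4-fold in the others; values right of 0 are higher at P30 or in SGNs.

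Other genes of glutamate supply were read from a list of 33 genes of glutamate and glutamine enzymes, carriers and uptake, GABA synthesis and glutathione synthesis, 23 of which could be tested among SGNs and 26 in all libraries. From E15.5 to P1, 2 rose and 1 fell of 23 (8.26% of all genes were called), and from P1 to P8, 3 rose and 1 fell (7.44%). From P8 to P14 and from P14 to P30, limma, DESeq2 and edgeR called 0 of 23, with 5 and 1 at an unadjusted p under 0.05 (0.536% and 0.0596% of all genes called by limma). From E15.5 to P30, 11 rose and 2 fell (34.6% of all genes). Of 26 genes, the SGN mean was higher than HCs for 5 and lower for 6 (26.8% of all genes called), and higher than glia for 7 and lower for 1 (24.7%). P14 SGNs against HCs gave 6 higher and 4 lower (23.1%), P8 SGNs against glia 8 higher and 1 lower (20.9%), and HCs against glia 6 higher and 3 lower (24.4%). With DESeq2, 8 of the 26 were called for the SGN mean against HCs and 7 against glia.

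*Got1*, the cytosolic aspartate aminotransferase that makes glutamate from aspartate, went from 23.8 ± 5.97 TPM at E15.5 to 435 ± 127 TPM at P30 (SD, n = 3). It rose from E15.5 to P1 by 2.04 ± 0.33 and from P1 to P8 by 1.2 ± 0.22 on the log2 scale (limma adjusted p = 0.00129 and 0.00242), and HCs and glia held 40.1 ± 8.07 and 12.8 ± 5.69 TPM. *Slc25a22*, a mitochondrial glutamate carrier, went from 6.28 ± 3.58 to 21.5 ± 3.25 TPM between E15.5 and P30 (2.03 ± 0.27, adjusted p = 2.13e-05). *Nat8l*, which makes N-acetylaspartate, went from 8.14 ± 3.01 to 90.7 ± 32.3 TPM (3.66 ± 0.27, adjusted p = 3.96e-08) and was at 0.991 ± 0.397 TPM in HCs and 1.31 ± 1.22 TPM in glia. *Asns*, which makes asparagine with glutamine as the nitrogen donor, was at 25.4 ± 12.2 TPM at E15.5 and 51.4 ± 16.9 TPM at P30 (1.17 ± 0.27, adjusted p = 0.00291) and at 2.26 ± 1.48 TPM in glia.

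*Psat1*, an aminotransferase of serine synthesis that consumes glutamate, went the other way, from 39.6 ± 20.7 TPM at E15.5 to 5.00 ± 0.245 TPM at P30 (-2.61 ± 0.41, limma adjusted p = 0.000105), with 140 ± 17.2 TPM in HCs and 49.9 ± 18.4 TPM in glia.

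The genes whose TPM followed those of the members most closely over the 21 libraries were named by Pearson's r of log2(TPM + 1), among 10553 genes above 10 CPM in all replicates of a group. The libraries share cell type and depth, so these coefficients are descriptions. *Slc17a6* was followed by *Syp* (r = 0.986), which encodes a synaptic vesicle protein. For *Slc17a7* they were *Cplx1* (0.988) and *Scn1a* (0.981), which encode the release factor complexin and a sodium channel. For *Slc17a8* they were *Dnajc5b* (0.924) and *Gpr155* (0.918), for *Slc1a3* *Kcna4* (0.954) and *BC067074* (0.946), for *Slc1a2* *Fam174b* (0.928) and *Mmd* (0.918), and for *Glul* *Ezr* (0.916) and *Foxo3* (0.882). *Slc1a1*, *Slc1a6* and *Gls2* did not reach 10 CPM in all replicates of any group.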

How the data were processed

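RNA of SGNs, HCs and glia was measured in 21 libraries of 7 groups, grouped by their labels. The authors mapped reads to mm10 with STAR 2.4.0i, counted them on GENCODE vM15 genes with featureCounts and deposited raw counts and gene lengths in 1 table. RNA had been amplified before library construction (Ovation RNA-Seq System V2), which can add spread at low counts. Strand and multimapping settings are not given in the sources used here, so reads of overlapping genes cannot be told apart. Among counts of 1 to 20, a median of 67.9% per library were even, so both reads of a pair may be counted, and counting intervals are then too narrow.

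TPM was computed from counts and lengths. A fold of a gene near 0 is given as a ratio of pooled counts with an exact interval at the 95% level; floors are 3 counts, and both cover counting error only. Counts were TMM-normalized (edgeR 4.0.16) and fitted with limma-voom (limma 3.58.1, R 4.3.3), group means only, two-sided, Benjamini-Hochberg adjusted over all genes whose CPM exceeded 1 in each replicate of at least 1 group. Ages were compared among the 15 SGN libraries (adjusted p 0.05, 2-fold) and cell types among all 21 (adjusted p 0.01, 4-fold), after the paper's methods. DESeq2 1.42.0, edgeR's quasi-likelihood test, other scalings, quality weights, a replicate block, a fit without low-count filter and left-out libraries were alternatives, and the fit was tested on simulated data. All 9 genes are named. Of the list of 33 genes, those called in at least 2 transitions or in both comparisons of the SGN mean are named, and the 2 genes with the highest r for each gene above 10 CPM; some genes that these rules name are not reported here. The genes and lists were chosen with earlier results of these data known.

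Positions came from GENCODE M21 (GRCm38) and promoters from RefSeq. Libraries with the same replicate number correlated above 0.1 in all 3 pairs at P14 and P30 on log2(CPM + 1) (0.41, 0.30 and 0.15), but not on log2(TPM + 1) (0.36, 0.099 and 0.025).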

Additional observations from a re-analysis of the deposited data

How the results depend on the processing

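Without 1 library at a time, the calls among the 9 genes ranged from 1 to 2 (E15.5 to P1), 2 to 3 (P1 to P8), 0 (P8 to P14), 0 to 1 (P14 to P30), 5 to 7 (E15.5 to P30), 4 to 5 (SGN mean against HCs), 3 to 6 (SGN mean against glia), 1 to 2 (HCs against glia), 3 to 5 (P8 SGNs against glia) and 4 to 5 (P14 SGNs against HCs). A fit left with 2 libraries in a group used the spread pooled over groups. The calls among all genes ranged from 688 to 1772, 652 to 1015, 28 to 54, 1 to 30 and 4251 to 5467 over the ages in the same order, where all libraries gave 1248, 1124, 81, 9 and 5224. From E15.5 to P1, the quasi-likelihood test, DESeq2 and the replicate block each called 3 of the 9 genes, and 552 of all genes were called with sample quality weights, 576 in a fit of the 6 libraries compared and 661 without the 3 libraries that stood apart. From P1 to P8, 2 of the 9 were called with library size alone, 2 without a filter on low counts and 1 with the quasi-likelihood test (649 of all genes). From P8 to P14, DESeq2 and the fit of 6 libraries called 1 each, and of all genes 34 were called by the quasi-likelihood test, 198 by DESeq2, 174 with weights, 146 with the replicate block and 38 without the 3 libraries. From P14 to P30, DESeq2 and weights called 1 of the 9, and of all genes 15 were called without a filter, 97 by DESeq2, 110 with weights, 23 with the replicate block, 2 with 6 libraries and 1 without the 3 libraries. With weights, the calls among the 9 and among all genes were 2 and 2017 for the SGN mean against glia, 0 and 2226 for HCs against glia, and 3 and 1942 for P8 SGNs against glia. For P14 SGNs against HCs the quasi-likelihood test called 3 of the 9. The cause of these changes was not tested. The p of the *Slc17a7* share ranged from 0.00244 to 0.0577 without 1 library. No sign of a called change turned under any setting, and of 761 fold changes of the 9 genes under other settings 715 kept their side of the threshold. The replicate block changed a call of the 9 genes only from E15.5 to P1 (*Slc17a6* and *Slc1a1* gained). Whether the numbers pair the P14 and P30 libraries depended on the scale, and no other compared pair of ages passed. Numbers of P8 and P30, which were not compared, correlated above 0.1 on both scales (0.39, 0.30 and 0.22 on log2(TPM + 1)), and those of P1 and P14 on log2(CPM + 1); the permutation test of the *Slc17a7* share took no account of this. At 10368240 to 37287489 counts per library, 3 counts stand for 0.0805 to 0.289 CPM, so the levels of *Gls2* in the HC libraries, with 0 to 2 counts each, cannot be told from 0. The alternative that left out the libraries that stood apart was chosen after seeing the data, for their *Otof* and *Slc17a6* levels.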
